A study of Drosophila montana with 9 samples.

Results

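Of the 108 genes on a candidate gene microarray of *Drosophila montana*, 5 genes of neuronal signalling were followed through the 12 probes that carry their names: *slo* (1 probe), *Slob* (2 probes), *cac* (5 probes), *na* (3 probes) and *shakB* (1 probe). The array held 208 distinct probes for genes, of which the 197 in the deposited table entered the values of genes, while tests probe by probe ran over all 208. The probes of these members were found by gene name, not by any measured value. The members themselves were chosen with earlier results of these data known. Total RNA came from whole bodies of females of 1 laboratory isofemale line, O3F66 from Oulanka in northern Finland, with 13 females in each sample and 3 one-colour arrays per group. Diapausing females were 14 days old and had lived at 16°C with 16 h of light per day, reproducing females were 14 days old and had lived at 16°C with 24 h of light, and young females were 1 day old and came from 24 h of light at 19°C. Young females therefore differed from both older groups in age and temperature together, and from diapausing females also in day length, and the effects of these cannot be told apart. In the same way, diapause cannot be told apart from the day length that induced it. Nothing in the labels says whether the samples of a group came from separate vials, so the p-values measure the spread between these samples only. In whole-body RNA, fewer cells of a type and less RNA per cell cannot be told apart either.

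All 5 genes act in excitable cells, and their roles are known from *D. melanogaster*. *slo* (slowpoke) encodes the pore-forming subunit of a calcium-activated potassium channel, which opens when calcium enters the cell and the membrane is depolarized and so helps to end action potentials in neurons and muscle. *Slob* encodes a protein that binds the Slowpoke channel and changes its gating. *cac* (cacophony) encodes the pore-forming subunit of the voltage-gated calcium channel that triggers transmitter release at synapses, and mutants have an altered courtship song. *na* (narrow abdomen) encodes a sodium leak channel that sets the excitability of clock neurons. *shakB* (shaking-B) encodes an innexin, the protein family that builds gap junctions in insects, and is needed for the electrical synapses of the giant fibre escape circuit. All 5 symbols were found in the RefSeq gene table of *D. montana*, which places none of them on a named chromosome.

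Each probe was 60 bases long. The sequences below are those on which the description turns: the only probes of *slo* and *shakB*, both probes of *Slob*, the *cac* probe that was measured on every array, and the pair of *na* probes that overlap. Capitals mark the 39 bases shared by the pair of *na* probes, which are therefore not independent readings of that gene. No other pair of the 12 probes shared more than 9 bases in a row on either strand.
Slo_1F1R: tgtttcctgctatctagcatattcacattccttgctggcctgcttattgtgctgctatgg
shakB_2: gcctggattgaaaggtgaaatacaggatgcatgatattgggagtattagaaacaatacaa
Slob2FR: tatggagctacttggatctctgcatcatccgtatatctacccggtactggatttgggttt
Slob_2F2R: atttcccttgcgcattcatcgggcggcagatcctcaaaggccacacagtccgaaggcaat
Cac_3_1: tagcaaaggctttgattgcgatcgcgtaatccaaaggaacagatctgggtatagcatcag
na_2F2R_a: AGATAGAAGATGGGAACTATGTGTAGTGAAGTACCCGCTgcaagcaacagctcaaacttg
na_2F2R_b: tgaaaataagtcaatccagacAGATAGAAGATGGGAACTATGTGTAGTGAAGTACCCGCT
Which strand of its gene each probe carries was not established here. The share of G and C was 45% in the probes of *slo* and Slob2FR, 55% in Slob_2F2R and 36.7% in the probe of *shakB*, and over the 12 probes it ran from 31.7% to 55%, within the 31.7% to 65% of all 208 probes on the array.

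The signals of these genes lay close to the background of the scanner. Raw mean intensities of the 12 probes ranged from 49.2 to 287, while the negative control spots averaged between 54.1 and 68.1 on the 9 arrays. A probe was taken as well above background by the mark of the scanner software in at least 1 of its copies. By that mark only Cac_3_1 was measured on all 9 arrays (8.33% of the 12 probes, against 53.3% of all 197), and 4 of the 12 were measured on no array (33.3%, against 19.8% of all 197). Those 4 were Cac_4FR_2L and Cac_4FR_3L for *cac* and na_1F1R and na_2F2R_b for *na*. The probes of *slo* and *shakB* and Slob2FR were measured on 8 arrays, all but reproducing replicate 40.

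Reproducing replicate 40 stood apart from the other arrays. Its negative controls had an SD of 20.4 around a mean of 57.7, whereas on the other 8 arrays the SD ran from 2.20 to 12.7. On that array the raw intensity of *slo* (58.0) was 0.016 SDs above the negative controls, that of *shakB* (59.5) 0.089 SDs and that of Slob2FR (65.1) 0.37 SDs. Cac_3_1 (64.7) was only 0.34 SDs above them, although the scanner software marked it as well above background there. Differences that include reproducing females are therefore given with and without it, except for intervals, counts of groups that do not overlap, distances between genes, most genes of the lists that were not called and the bounds for dim probes, which include it.

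**Figure D1:**
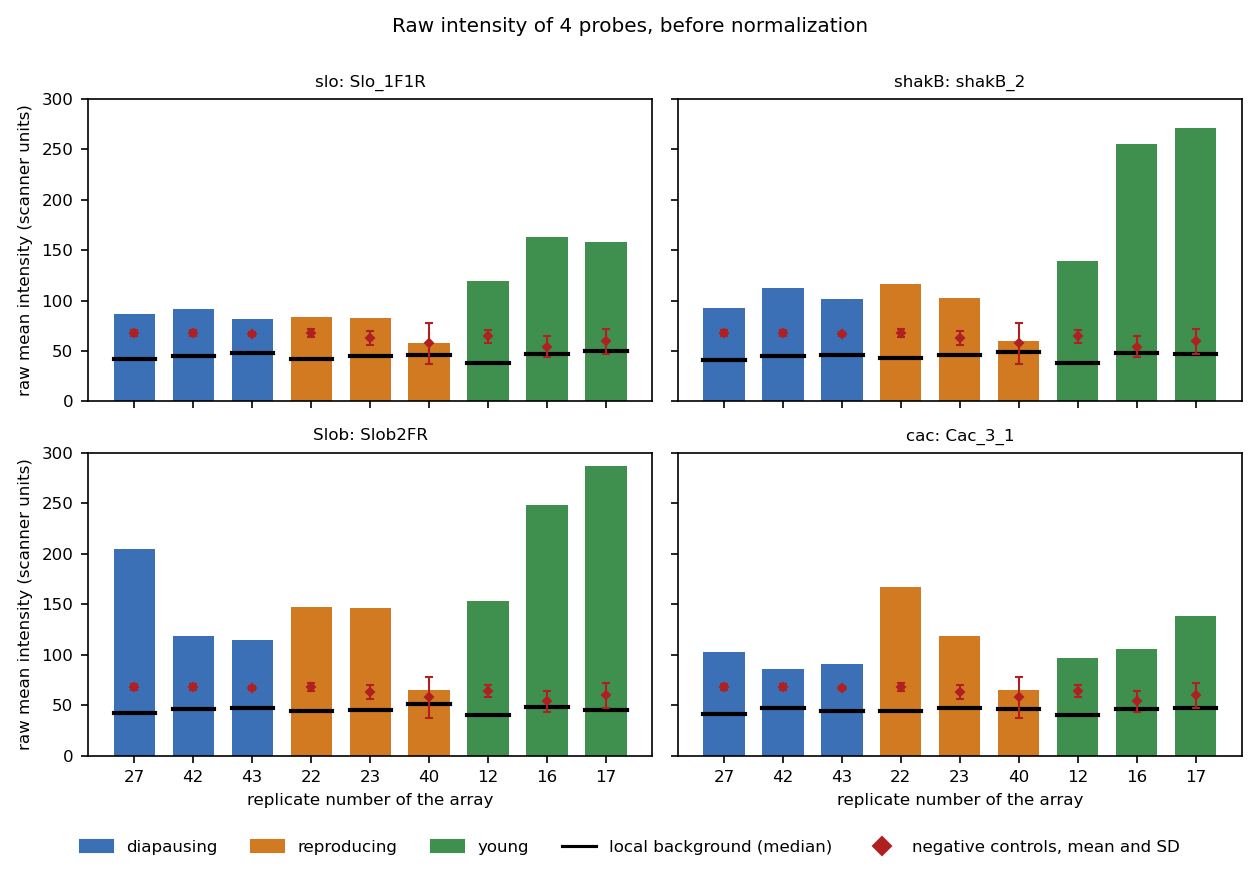
Raw mean intensity in scanner units of the probes Slo_1F1R, shakB_2, Slob2FR and Cac_3_1 on each array, with bars coloured by group, black lines for the local background and red diamonds for the mean and SD of the negative controls. The bars of *slo* reach 119 to 163 in young females and stay between 58.0 and 91.6 elsewhere. On reproducing replicate 40 the bars of *slo*, *shakB*, Slob2FR and Cac_3_1 all end within the SD of the negative controls.

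Values below are log2 values after variance stabilizing normalization (VSN), in which each probe is compared only with itself. A gene was called when its adjusted p from limma (Benjamini-Hochberg over 108 genes, 9 arrays in 1 fit) was below 0.05 and its fold change exceeded 2. Fitted fold changes of probes this dim are on a compressed scale, so they are not ratios of RNA amounts.

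The largest contrasts among the 5 genes lay between young females and both groups of older females, and they were those of *slo*, the potassium channel, and *shakB*, the gap junction protein. Of the 5 genes, *slo* alone was called in diapausing against young females, where 1.85% of all genes were called lower in the older group, and *slo* and *shakB* were called in reproducing against young females, where 6.48% of all genes were called lower. All 3 calls of the members were in that direction. These comparisons share the 3 young arrays, so they are not independent of each other. None of the 5 genes was called between diapausing and reproducing females (0 of 5, also 0 at an unadjusted p under 0.05), where 0.926% of all genes were called and 8.33% reached an unadjusted p under 0.05.

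*slo* read 5.31, 5.24 and 5.01 in diapausing females (replicates 27, 42 and 43), 4.98, 5.08 and 4.68 in reproducing females (replicates 22, 23 and 40) and 6.30, 7.22 and 7.03 in young females (replicates 12, 16 and 17). All 3 young arrays were above all 6 arrays of older females, and the ranges of diapausing and reproducing females overlapped. The raw intensities showed the same separation before any normalization, with 119, 163 and 158 in young females against at most 91.6 in the others. Group means were 4.91 ± 0.21 (SD, n = 3) in reproducing, 5.18 ± 0.16 in diapausing and 6.85 ± 0.49 in young females. The fitted difference was -1.67 (SE 0.29, adjusted p = 0.0340) in diapausing against young females, a fold change of 3.18, and -1.94 (SE 0.29, adjusted p = 0.0102) in reproducing against young females, a fold change of 3.83. In both comparisons *slo* had the smallest p of the 108 genes. *slo* has 1 probe, so the test over 208 probes used the same values and is not a second reading. There Slo_1F1R was called with adjusted p = 0.0222 where 1.92% of all probes were called lower and adjusted p = 0.0101 where 3.37% were. Diapausing minus reproducing females gave 0.27 (95% interval -0.38 to 0.93, adjusted p = 0.719). On slides 1 to 3 it was 0.33, 0.16 and 0.32, and without reproducing replicate 40 it was 0.09 (adjusted p = 0.895).

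Each of the 3 slides carried 1 array of each group, and the contrast of *slo* was below 0 on all 3. That direction follows from the separation of the young arrays given above and is no added support, so only the sizes are informative. Diapausing minus young was -0.995, -1.98 and -2.02 on slides 1 to 3, and reproducing minus young was -1.33, -2.14 and -2.35. The smallest difference of both sets was on slide 1, which held young replicate 12, the young array with the lowest value. With slide as a block, the call against diapausing females was lost (adjusted p = 0.0918) and that against reproducing females stood (adjusted p = 0.0318). Without reproducing replicate 40, *slo* was still called in both comparisons, at -1.28 (adjusted p = 0.0309) and -1.36 (adjusted p = 0.0321). Leaving out diapausing replicate 42 or 43, reproducing replicate 22 or 23, or young replicate 16 or 17 raised the adjusted p of diapausing against young females above 0.05 (0.0792, 0.124, 0.0511, 0.0756, 0.212 and 0.188). Leaving out young replicate 16 or 17 did the same to reproducing against young females (0.0593 and 0.0521).

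*shakB* read 5.53, 5.77 and 5.59 in diapausing females, 5.98, 5.72 and 4.75 in reproducing females and 6.66, 8.01 and 8.02 in young females, in the same order of replicates. Again the 3 young arrays stood above all 6 others, while the values of diapausing females fell inside the range of reproducing females. Raw intensities were 139, 255 and 271 in young females and at most 117 in the others. The means were 5.48 ± 0.65 (SD, n = 3) in reproducing, 5.63 ± 0.13 in diapausing and 7.56 ± 0.78 in young females. The SD of reproducing females came mostly from replicate 40, and that of young females from replicate 12, the lowest young array here as for *slo*.

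In reproducing against young females the difference of *shakB* was -2.08 (SE 0.45, adjusted p = 0.0268), a fold change of 4.23. In diapausing against young females the difference was -1.93 (SE 0.45), a fold change of 3.82, but the adjusted p of 0.0585 missed the threshold. Without reproducing replicate 40 these positions changed places: the difference from diapausing females was called (-1.61, adjusted p = 0.0428) and that from reproducing females was not (-1.44, adjusted p = 0.0695). With slide as a block neither was called (adjusted p = 0.120 and 0.0520). Within slides, diapausing minus young was -1.13, -2.24 and -2.43 and reproducing minus young was -0.68, -2.29 and -3.27. That both were below 0 on all 3 slides again follows from the separation of the young arrays. The call against reproducing females was also lost without reproducing replicate 23 (adjusted p = 0.0586) or young replicate 16 or 17 (0.115 and 0.126), and the difference from diapausing females was called without young replicate 12 (-2.42, adjusted p = 0.0305).

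Diapausing and reproducing females did not separate for *shakB*. It was 0.15 higher in diapausing females (95% interval -0.87 to 1.17, adjusted p = 0.852), and without reproducing replicate 40 it was -0.18 (adjusted p = 0.882), with the opposite sign. On slides 1 to 3 it was -0.45, 0.05 and 0.84.

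**Figure D2:**
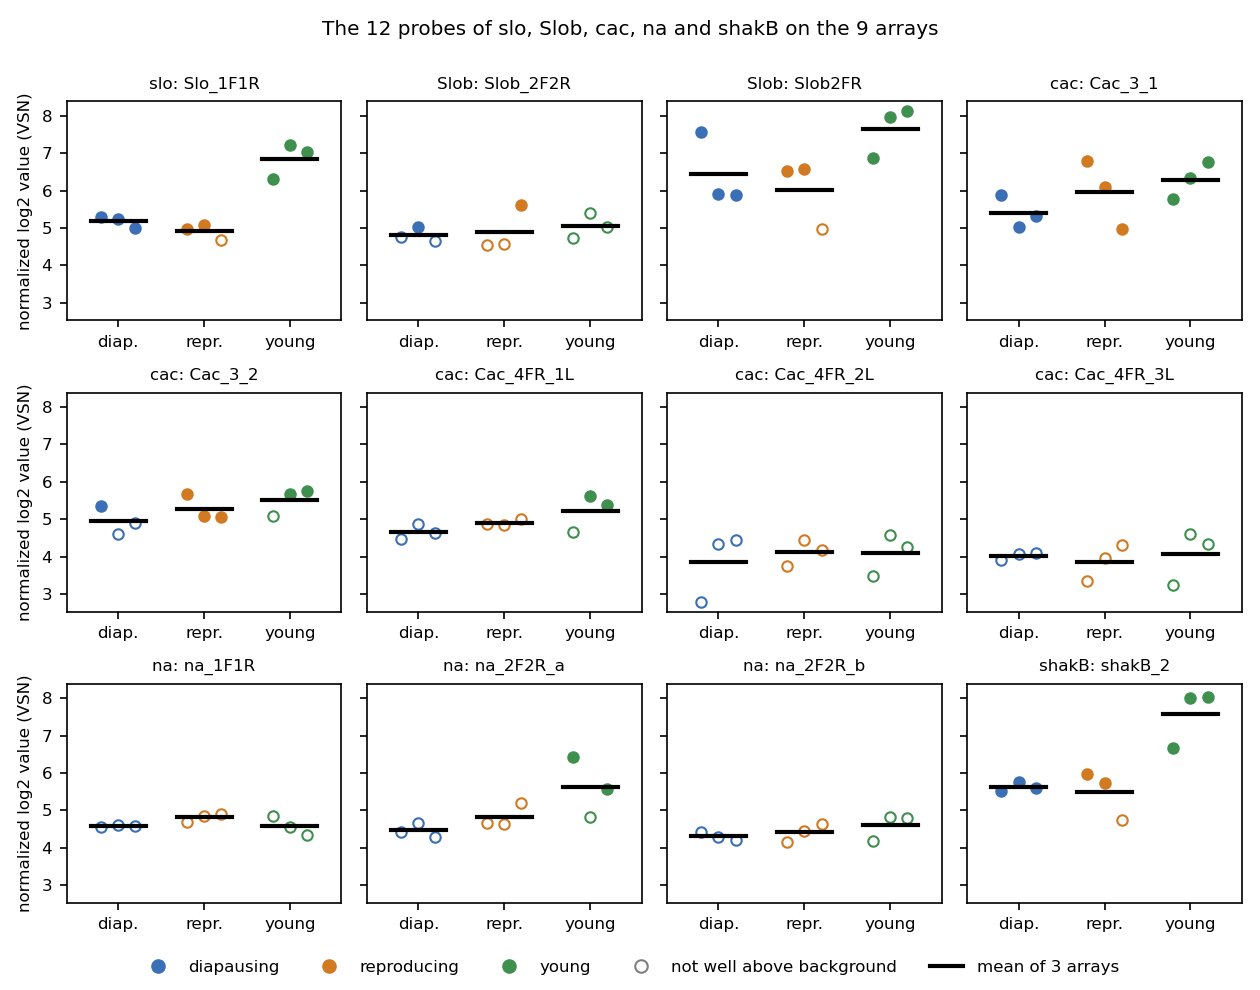
Normalized log2 value (VSN) of each of the 12 probes on the 9 arrays, grouped as diapausing, reproducing and young. Filled points are well above background, open points are not, and black bars are means of 3 arrays. For *slo* and *shakB* the 3 young arrays lie above the other 6, at 6.30 to 7.22 and 6.66 to 8.02, while the probes of *na* and 3 probes of *cac* are mostly open.

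*Slob*, whose product binds the Slowpoke channel, was not called in any comparison, and its diapausing and young arrays overlapped. Slob2FR, the probe measured on 8 arrays, read 7.56, 5.90 and 5.88 in diapausing, 6.52, 6.57 and 4.99 in reproducing and 6.87, 7.97 and 8.12 in young females. The young arrays were above all reproducing arrays, but diapausing replicate 27 (7.56) was above young replicate 12 (6.87), so diapausing and young females overlapped. The other probe, Slob_2F2R, read between 4.54 and 5.60 on the 9 arrays and was well above background on diapausing replicate 42 (5.03) and reproducing replicate 40 (5.60) only. Its raw intensity on the latter array (85.2) was 1.35 SDs above the negative controls. Slob_2F2R had its highest value on the array where Slob2FR had its lowest. Probe by probe, the differences of Slob2FR were -1.21 (SE 0.62, adjusted p = 0.474) in diapausing against young, -1.63 (SE 0.62, adjusted p = 0.221) in reproducing against young and 0.42 (SE 0.62, adjusted p = 0.753) in diapausing against reproducing females. With reproducing replicate 40 left out they were -1.03 (adjusted p = 0.267), -0.97 (adjusted p = 0.371) and -0.07 (adjusted p = 0.963), the last with the opposite sign. The 2 copies of Slob2FR on an array differed by 4.47% to 34.6% of their mean in raw intensity.

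With both probes averaged, *Slob* was at 5.63 ± 0.47 (SD, n = 3) in diapausing, 5.46 ± 0.15 in reproducing and 6.35 ± 0.48 in young females. The differences were -0.72 (95% interval -1.48 to 0.04, adjusted p = 0.394) in diapausing against young, -0.89 (-1.64 to -0.13, adjusted p = 0.160) in reproducing against young and 0.17 (-0.59 to 0.92, adjusted p = 0.817) in diapausing against reproducing females. None of these passed the test. On slide 1, diapausing females were higher than young females by 0.37, and on slides 2 and 3 they were lower (-1.22 and -1.31). Without diapausing replicate 27, *Slob* in diapausing minus reproducing females was -0.06 (adjusted p = 0.922), so its sign rested on that array. Without reproducing replicate 40 it was 0.04 (adjusted p = 0.958), and the differences from young females were -0.59 (adjusted p = 0.265) in diapausing and -0.62 (adjusted p = 0.310) in reproducing females. The result also depended on the scaling: when background-subtracted signals were brought to a common 75th percentile in place of VSN, *Slob* was called higher in diapausing than in reproducing females (1.54, adjusted p = 0.0190) and lower in reproducing than in young females (-1.20, adjusted p = 0.0328), while the difference between diapausing and young females turned to 0.33 (adjusted p = 0.597).

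*cac*, the synaptic calcium channel, was the member with the most probes, and 2 of its 5 were measured on no array. Cac_3_1, measured on all 9, read 5.88, 5.04 and 5.31 in diapausing, 6.80, 6.11 and 4.97 in reproducing and 5.76, 6.35 and 6.76 in young females. The 3 groups overlapped, and reproducing females held both the highest and the lowest value. Differences of Cac_3_1 were -0.55 (SE 0.49, adjusted p = 0.713) in diapausing against reproducing, -0.88 (adjusted p = 0.508) in diapausing against young and -0.33 (adjusted p = 0.757) in reproducing against young females. With reproducing replicate 40 left out they were -0.79 (adjusted p = 0.302), -0.65 (adjusted p = 0.248) and 0.14 (adjusted p = 0.851), the last with the opposite sign. Within slides, diapausing minus reproducing was -0.92 and -1.07 on slides 1 and 2 and 0.34 on slide 3, which held reproducing replicate 40. On that array the 2 copies of Cac_3_1 gave raw intensities of 55 and 74.4, beside negative controls at 57.7 ± 20.4.

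Of the other *cac* probes, Cac_3_2 and Cac_4FR_1L were measured on some arrays. Cac_3_2 was well above background on diapausing replicate 27, all 3 reproducing arrays and young replicates 16 and 17, with group means of 4.94 ± 0.38, 5.27 ± 0.34 and 5.50 ± 0.37. On reproducing replicate 40, however, the raw intensity of Cac_3_2 (67.4) was only 0.48 SDs above the negative controls, and its copies differed by 33.2% of their mean. Its differences did not pass the test (adjusted p = 0.713, 0.514 and 0.753 in the 3 comparisons, and 0.630, 0.463 and 0.917 without reproducing replicate 40). Cac_4FR_1L was well above background only in young replicates 16 and 17 (5.61 and 5.37). As bounds on the means of 3 arrays, young females were 1.24-fold above diapausing and 1.19-fold above reproducing females. Neither difference passed the test (adjusted p = 0.502 and 0.628). For such bounds each array of the dim group was set to no less than its lowest value of a probe well above background.

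Averaged over its 5 probes, *cac* was at 4.58 ± 0.10 (SD, n = 3) in diapausing, 4.83 ± 0.11 in reproducing and 5.03 ± 0.51 in young females. It was the member whose diapausing and reproducing arrays did not overlap, with diapausing females lower (4.48 to 4.68 against 4.70 to 4.89). However, no *cac* probe separated the groups by itself, and 2 of the 5 averaged probes were measured on no array. Groups failed to overlap in that direction for 5.56% of all genes. The difference was -0.25 (95% interval -0.89 to 0.39, adjusted p = 0.724), and within slides it was -0.41, -0.31 and -0.03. Without reproducing replicate 40 it was -0.23 (adjusted p = 0.654). Against young females *cac* differed by -0.45 (adjusted p = 0.456) in diapausing and by -0.21 (adjusted p = 0.729) in reproducing females. These sizes rested on single arrays: they were -0.29 (adjusted p = 0.402) and -0.062 (adjusted p = 0.898) without reproducing replicate 40, -0.80 (adjusted p = 0.0952) and -0.58 (adjusted p = 0.180) without young replicate 12, -0.30 (adjusted p = 0.867) and -0.037 (adjusted p = 0.978) without young replicate 16, and -0.33 (adjusted p = 0.744) and -0.11 (adjusted p = 0.948) without young replicate 17.

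*na*, the sodium leak channel, was hardly measured. Its 3 probes were well above background on no array of diapausing or reproducing females, so no fold is given between those groups. In young females na_2F2R_a read 6.42, 4.83 and 5.58 and was well above background on replicates 12 and 17. On diapausing arrays it read 4.29 to 4.66 and on reproducing arrays 4.64 to 5.19. As bounds on the group means, this gave 1.63-fold over diapausing and 1.50-fold over reproducing females. Neither difference passed the test (adjusted p = 0.253 and 0.334 over 208 probes), and young replicate 16 (4.83) lay inside the range of reproducing females. The highest young value came from replicate 12, which was the lowest young array for *slo*, *shakB* and Slob2FR. na_2F2R_b, which shares the 39 capitals with it, read 4.19, 4.82 and 4.79 on the same arrays and was well above background on none of them, and na_1F1R read 4.84, 4.55 and 4.35. The 3 probes averaged gave 4.45 ± 0.08 (SD, n = 3) in diapausing, 4.68 ± 0.21 in reproducing and 4.93 ± 0.21 in young females, with adjusted p = 0.394 and 0.589 against young females. Leaving out reproducing replicate 40 gave differences of *na* from young females of -0.28 (adjusted p = 0.306) in diapausing and -0.21 (adjusted p = 0.530) in reproducing females.

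**Figure D3:**
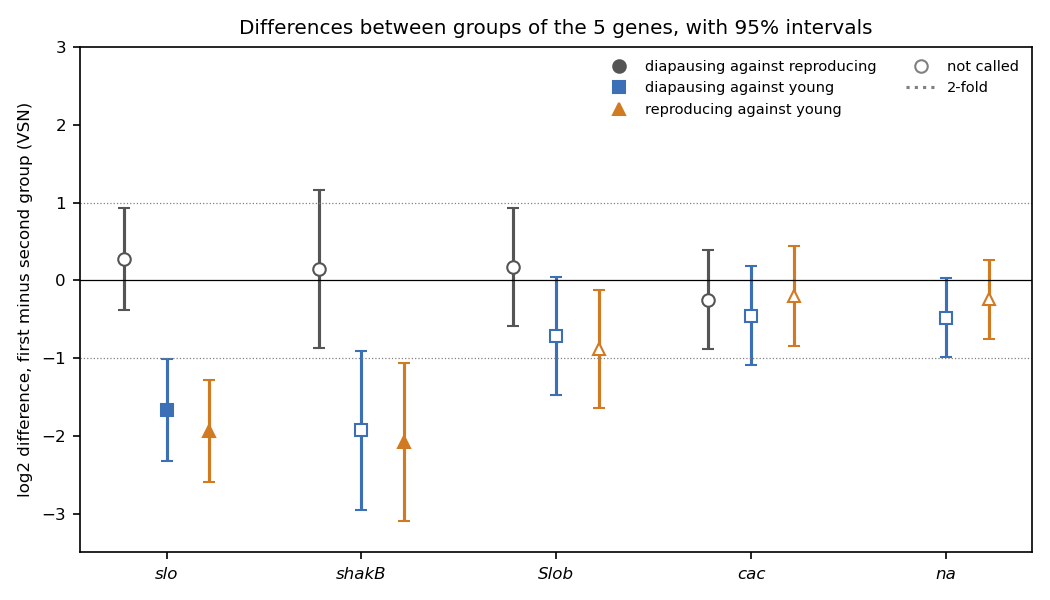
Difference of the normalized log2 values between groups for each gene, first minus second group, with 95% intervals from limma over 9 arrays. Filled symbols were called, and dotted lines mark a 2-fold difference. The filled symbols are *slo* at -1.67 and -1.94 and *shakB* at -2.08, and *na* has no symbol for diapausing against reproducing females because it was below background in both.

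Counted over the 5 genes, all 5 fitted differences were below 0 in diapausing against young females and all 5 in reproducing against young females, where 77.8% and 63% of all genes were below 0. The median of the 5 was -0.72 in the former, beside -0.39 over all genes, and -0.89 in the latter, beside -0.14. Groups did not overlap, with the older females lower, for 3 of the 5 genes in each comparison, against 14.8% and 24.1% of all genes. These counts include *na*, which was well above background on no array of older females. It was 1 of the 3 genes in diapausing against young females. In diapausing against reproducing females the median of the 5 was 0.15, beside -0.02 over all genes. The 3 medians without reproducing replicate 40 were -0.59, -0.62 and -0.07, beside -0.29, 0.0030 and -0.14 over all genes.

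**Figure D4:**
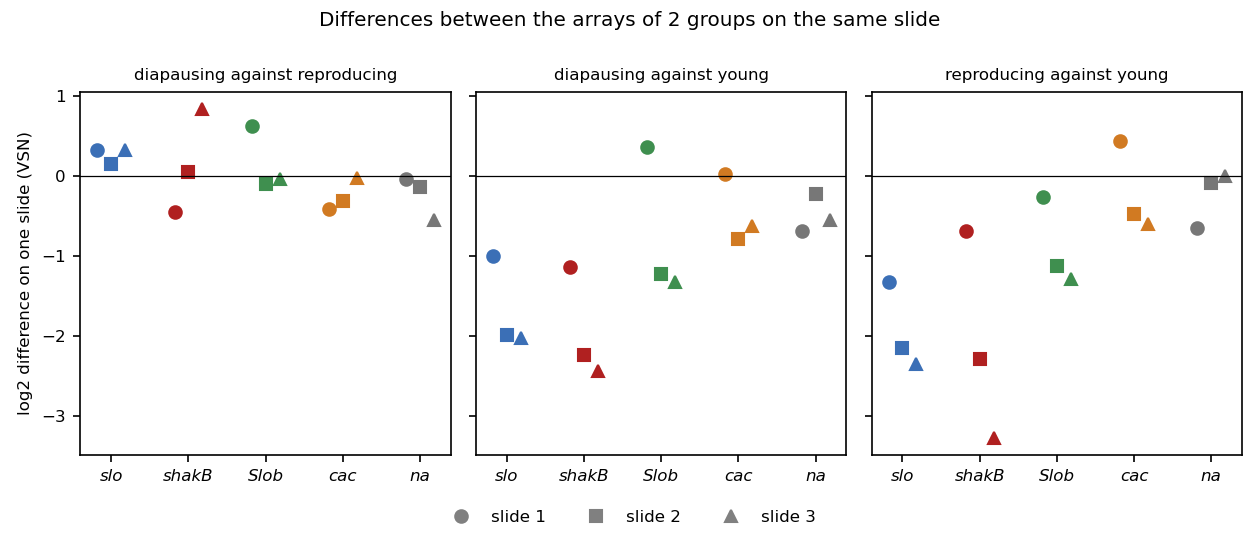
Difference of the normalized log2 value between the arrays of 2 groups on the same slide, for each gene and comparison, with 1 symbol per slide. For *slo* and *shakB* all symbols of the comparisons with young females lie below 0, from -0.995 to -2.35 and from -0.68 to -3.27, and slide 1 gives the smallest difference.

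The pattern over the 9 arrays was compared between genes by the root mean square (RMS) difference of their log2 values after each gene's own mean was subtracted. *slo* and *shakB* lay close together, with an RMS difference of 0.31. Among the 107 other genes *slo* was nearest to *so* (0.30), a transcription factor of eye development, then to *shakB* and to *stv* (0.31), a co-chaperone. *shakB* was nearest to *slo*, then to *stv* (0.37) and to *Ddc* (0.41), the dopa decarboxylase that serves dopamine synthesis and cuticle hardening. For comparison, the RMS distance from *slo* to the median gene was 0.91 and that from *shakB* 1.06. *Slob* was at 0.50 from *slo* and at 0.68 from *shakB*, and its nearest genes were *InR*, the insulin receptor (0.26), *e* (0.26) and *Hsc70-2* (0.28). The nearest genes of *cac* were *disco* (0.21), *Dat* (0.23) and *trp* (0.25), and those of *na* were *Cdc37* (0.18), *fru* (0.23) and *trp* (0.25). Genes that vary little lie near each other by this measure: the values of *cac* and *na* varied around their own means by an RMS of only 0.31 and 0.24. These distances describe 9 arrays that share normalization and have no test.

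The 6 other channel genes of the array (*para, tipE, Sh, nan, trp* and *inaF*) gave 0 calls in any comparison and 0 at an unadjusted p under 0.05. *para* and *nan* were measured on no array, so no difference is given for them. Differences of the 4 genes measured on any array ran from -0.49 to 0.20 in diapausing against young females. In reproducing against young females they ran from -0.38 to 1.01. The medians over all genes were -0.39 and -0.14 in these comparisons. *Sh*, a voltage-gated potassium channel, differed from young females by -0.13 (adjusted p = 0.801) in diapausing and by 0.20 (adjusted p = 0.729) in reproducing females. *trp*, the light-activated channel of photoreceptors, differed by -0.49 (adjusted p = 0.394) and -0.38 (adjusted p = 0.394). *tipE*, which encodes an auxiliary subunit of the voltage-gated sodium channel, was 1.01 (SE 0.94, adjusted p = 0.589) higher in reproducing than in young females. Between diapausing and reproducing females *Sh* had the lowest p-value of the list (-0.33, adjusted p = 0.653). The list again gave 0 calls without reproducing replicate 40.

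Of 7 regulators of synapses, calcium signals and excitability (*syt, Cam, CaMKII, Adar, Nf1, dnc* and *Ankyrin*), 0 were called in any comparison, with or without reproducing replicate 40. *syt*, a calcium sensor of synaptic vesicles, and *Nf1* were measured on no array, so no difference is given for them. *dnc*, a cAMP phosphodiesterase, differed by -1.46 (adjusted p = 0.102) and *CaMKII*, the calcium/calmodulin-dependent kinase, by -1.32 (adjusted p = 0.241) in diapausing against young females, and both had an unadjusted p under 0.05 there. *CaMKII* also differed by -1.27 (adjusted p = 0.442) in diapausing against reproducing females, and *Cam*, calmodulin, by 0.46 (adjusted p = 0.643). In reproducing against young females *dnc* differed by -0.80 (adjusted p = 0.318).

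Marker lists of other cell types are given beside *slo* and *shakB*, since some of their genes also differed from young females, and their part in the differences of *slo* and *shakB* was not tested. The mean over 12 photoreceptor genes ranged from 9.61 to 10.12 in young, from 8.23 to 10.13 in diapausing and from 6.65 to 9.28 in reproducing females, lowest on replicate 40. All 12 had fitted differences below 0 against young females in both older groups, 0 were called, and the medians were -0.67 and -1.47. Those with the smallest p-values were *inaC*, a protein kinase C, at -0.89 (adjusted p = 0.0631) and *ninaC*, a myosin, at -2.59 (adjusted p = 0.140) in reproducing against young females, *trp* and *ninaC* (-1.88, adjusted p = 0.394) in diapausing against young females, and *inaC* (0.75, adjusted p = 0.250) and *Arr2*, an arrestin (1.41, adjusted p = 0.716), in diapausing against reproducing females. When reproducing replicate 40 was left out, the photoreceptor medians were -0.69 in diapausing and -0.47 in reproducing against young females, with 12 and 11 of the 12 below 0, and the median of diapausing against reproducing females was -0.24 where it had been 0.60. In that last comparison *Arr2* turned to -0.34 (adjusted p = 0.882) and *inaC* fell to 0.35 (adjusted p = 0.332). In reproducing against young females *inaC* was then at -0.43 (adjusted p = 0.247) and *ninaC* at -1.58 (adjusted p = 0.310). The mean over 3 genes of cuticle-forming epidermis was 9.65 to 10.28 in young, 8.35 to 9.24 in diapausing and 7.76 to 8.76 in reproducing females, and *Ddc* was called lower in diapausing (-2.09, adjusted p = 0.0443) and reproducing (-2.53, adjusted p = 0.0102) than in young females, and was still called without reproducing replicate 40 (-2.09, adjusted p = 0.0309, and -2.15, adjusted p = 0.0321). The other members of that list, *e* and *b*, were not called: *e* differed by -0.57 (adjusted p = 0.394) and -0.61 (adjusted p = 0.196), and *b* by -1.003 (adjusted p = 0.394) and -1.43 (adjusted p = 0.140). The mean over 5 neuronal genes, of which *syt* and *para* were measured on no array, overlapped between the groups, at 5.75 to 6.22 in young, 5.31 to 5.94 in diapausing and 5.75 to 6.13 in reproducing females, with 0 called.

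For maternal transcripts, the mean over 8 genes of ovary and early embryo was 7.15 to 7.46 in young, 6.35 to 8.23 in diapausing and 7.68 to 8.51 in reproducing females, where 1 of the 8, the small heat shock gene *Hsp26*, was called higher than in young females (3.50, adjusted p = 0.0268), though not without reproducing replicate 40 (3.02, adjusted p = 0.0671). *slmb* and *tws* differed by 1.28 (adjusted p = 0.201) and 0.82 (adjusted p = 0.259) in that comparison and by -1.74 and -1.26 (both adjusted p = 0.250) in diapausing against reproducing females. In diapausing against young females *Hsp26* differed by 2.42 (adjusted p = 0.137). The 7 housekeeping genes gave 0 calls in any comparison, and their mean was 12.07 to 12.19 in young, 11.38 to 12.52 in diapausing and 11.40 to 11.87 in reproducing females. It was highest on diapausing replicate 27, the array on which Slob2FR was also the highest of its group.

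The direction of *slo* and *shakB* against young females did not turn in any of 13 other ways of processing or with any array left out. Some of the 13 could not turn it, since each gene has 1 probe and every slide held all groups. Blocking by slide, fitting each pair of groups alone, dropping dim probes, taking the brightest probe and dropping the fold minimum left both fitted differences unchanged. For the direction, only the remaining settings were a test. Leaving out an array was no test of it on the values given above, where every young array stood above every array of older females for both genes. In diapausing against young females *slo* ranged from -2.28 to -0.60 and *shakB* from -2.33 to -0.81 over the 13, and in reproducing against young females *slo* ranged from -2.42 to -0.84 and *shakB* from -2.35 to -1.22. The ends nearest to 0 came from the normexp correction with quantile normalization, under which *slo* stayed below a 2-fold difference in both comparisons. The calls were less stable than the direction: over the 13, from 0 to 2 of the 5 genes were called in diapausing against young and from 1 to 3 in reproducing against young females, and with arrays left out in turn from 0 to 2 were called in each.

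**Figure D5:**
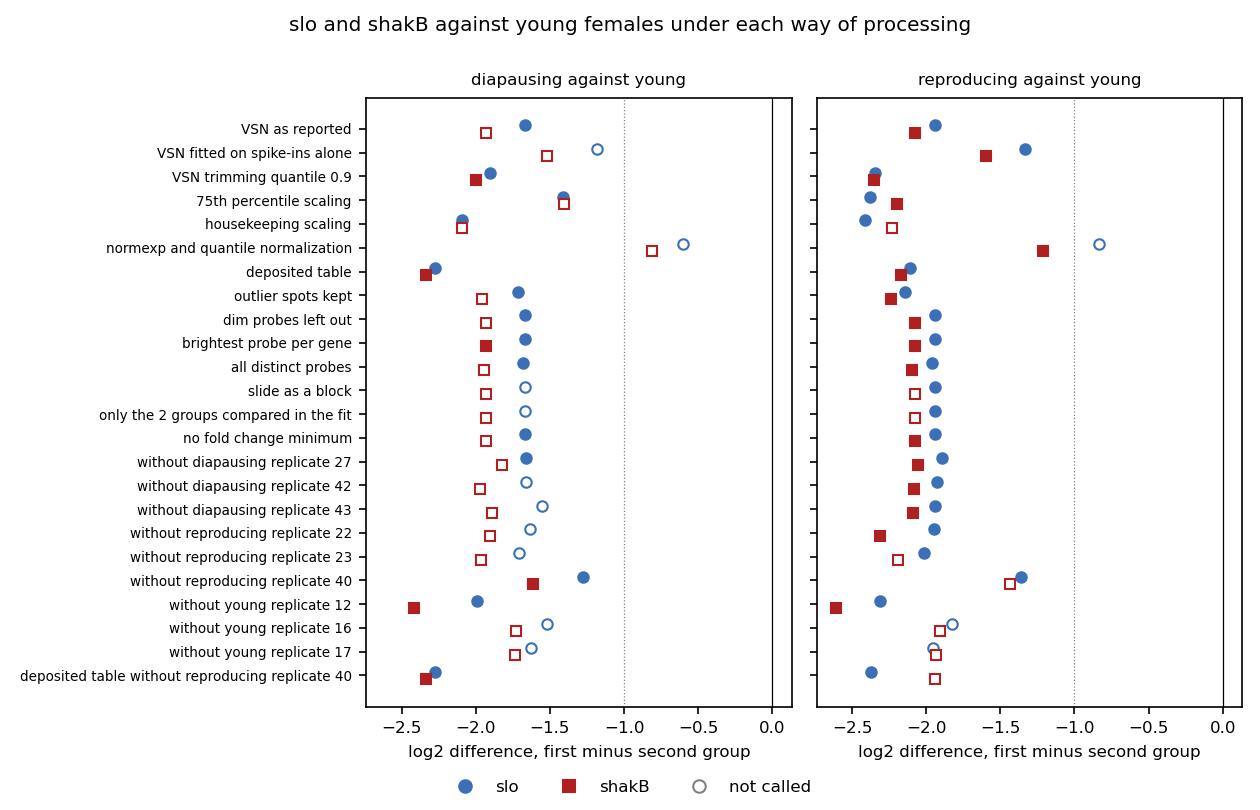
Difference of the log2 value of *slo* (circles) and *shakB* (squares) between older and young females under each way of processing and with each array left out. Filled symbols were called and the dotted line marks a 2-fold difference. All symbols lie below 0, and those nearest to it come from the normexp correction with quantile normalization (*slo* -0.60 and -0.84). Settings that could not change the difference repeat its main value.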

How the data were processed

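Expression was measured on 9 one-colour arrays, 3 for each of the diapausing, reproducing and young females. The deposited scanner files give for each spot a raw mean intensity, a median for the surrounding background, and a detrended intensity with background subtracted, and arrays are not scaled to each other. The authors also deposited a table of linear intensities for 197 probes, whose scaling the sources do not state. It followed the background-subtracted intensities on 8 arrays (correlation of log2 values across probes of 0.998 or more) but less closely on reproducing replicate 40 (0.916), and it served as an alternative only. The version of Feature Extraction differs between the paper and the file headers.

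The methods of the study name VSN with spike-in spots and limma. The intensity column and the way probes were combined were chosen here: VSN was fitted on the raw mean intensities of the 197 probes in the deposited table and 200 spike-in spots. R 4.3.3 was used for a new implementation of its model (trimming quantile 0.5, 7 rounds, 5 slices). Copies of a probe were averaged, spots marked as outliers were left out (3 experimental spots, 0 of the members), and log2 values were averaged over the probes of each gene. Differences were tested with limma 3.58.1 over 108 genes, or 208 probes, with Benjamini-Hochberg adjustment. The scripts were tested on simulated data. Python 3.11.15 with matplotlib 3.10.9 served for the figures. Precision is limited by the 3 arrays in each group.

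The members, the gene lists and the tests were chosen with earlier results of these data known. Named are the 5 genes and all their probes, and from each list the genes called and up to 2 further genes with the smallest adjusted p per comparison. The 3 nearest genes are named for each member. The groups are given in the labels by abbreviations, read with the paper. Technical replicate arrays and qRT-PCR are not analysed here.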

Additional observations from a re-analysis of the deposited data

How the results depend on the processing

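Of the 5 genes, the number called was recomputed under 13 alternatives and with each array left out. In diapausing against reproducing females 0 were called, except with scaling to the 75th percentile (1, *Slob*). In diapausing against young females, where *slo* was called, 0 were called with VSN fitted on spike-ins alone, with normexp and quantile normalization, with slide as a block or with only the 2 groups compared in the fit, and 2 (*slo* and *shakB*) with a trimming quantile of 0.9, the deposited table (also without reproducing replicate 40, a setting added after the data were seen) or the brightest probe per gene. In reproducing against young females, where *slo* and *shakB* were called, 1 was called with housekeeping scaling (*slo*), normexp and quantile normalization (*shakB*), slide as a block (*slo*), only the 2 groups compared in the fit (*slo*) or the deposited table without reproducing replicate 40 (*slo*). With arrays left out in turn, the counts ranged from 0 to 0, from 0 to 2 and from 0 to 2 in the 3 comparisons. No paired analysis was possible because the groups share no replicate numbers, and the slides, with 1 array of each group, were used as a block in its place. The cause of these changes was not tested.

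The sign turned between diapausing and reproducing females for *slo* (-0.17) and *shakB* (-0.16) with the deposited table, for *shakB* also with that table without reproducing replicate 40 (-0.39) and without that replicate under VSN (-0.18), and for *Slob* without diapausing replicate 27 (-0.061, with a range of -0.061 to 0.382 over the arrays left out). Scaling to the 75th percentile turned *Slob* in diapausing against young females (0.33), Slob_2F2R in diapausing against reproducing (1.199) and against young females (1.06), and Cac_3_1 (0.0506) and Cac_3_2 (0.41) in reproducing against young females. That scaling moved the median difference of all genes from -0.02 to 0.27, from -0.39 to 0.32 and from -0.14 to 0.10 in the 3 comparisons. It called 10, 8 and 20 genes, of which 70%, 87.5% and 55% were higher in the first group. With VSN only 1, 2 and 9 genes were called, of which 100%, 0% and 22.2% were higher in the first group. Tested probe by probe without reproducing replicate 40, after the data were seen, the sign turned for Slob_2F2R (0.14), Slob2FR (-0.066) and *shakB* (-0.18) in diapausing against reproducing and for Cac_3_1 (0.14) in reproducing against young females. Signal over background also limits the values: 4 of the 12 probes were measured on no array, and VSN compresses differences between dim probes.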

Other observations

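In the deposited table, the column of reproducing replicate 40 gave other values for these probes than the scanner file of that array. These values were looked at after the differences between the sources had been seen. The deposited value of na_2F2R_b was 238 on reproducing replicate 40 and 9 to 14 on the other 8 arrays, whereas its background-subtracted intensity in the scanner file of that replicate was 2.37 and its raw intensity (57.2) lay at the negative controls. Slob2FR was at 235 in the table, above reproducing replicates 22 and 23 (156 and 164), and at 3.24 in the scanner file, below them (69.7 and 72.2). For *slo* the table gave 66, above the 34 and 43 of the other reproducing arrays, and the scanner file gave 6.99, below their 14.3 and 17.5. The deposited value of *shakB* on that replicate, 58, was the lowest of the 9 arrays in the table as it was in the scanner files. On the young arrays *slo* was at 124, 279 and 225 in the table and *shakB* at 173, 522 and 504.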
